A study of Mus musculus with 4 samples.

Results

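The core circadian clock genes were examined in liver RNA of mice lacking Fto and of wild-type mice, both on a C57/Bl6 background. The 10 genes were chosen by name: Clock, Arntl, Per1, Per2, Per3, Cry1, Cry2, Nr1d1, Nr1d2 and Dbp. All 10 had a row among the 12883 genes of the input table. In the immunoprecipitate 7 of them had a row, with 10 of its 7569 transcripts, while Arntl, Cry1 and Dbp had none. The groups were Fto knockout immunoprecipitate, wild-type immunoprecipitate, Fto knockout input and wild-type input, and the labels state 3 replicates for each. The immunoprecipitate was made by miCLIP, in which an antibody against methylated adenosine is crosslinked to total liver RNA and the bound fragments are cloned. Fto encodes an enzyme that removes methyl groups from adenosines in RNA. The labels do not say how Fto was inactivated, in which cells, whether replicates were separate animals, or at what time of day and after what feeding the livers were taken.

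The clock is a feedback loop of transcription that runs in nearly every cell and is strong in liver. CLOCK and BMAL1, the product of Arntl, bind E-boxes as a pair and switch on the Per and Cry genes, whose proteins return to the nucleus and inhibit that pair. The same pair switches on Nr1d1 and Nr1d2, which encode the repressors REV-ERB alpha and beta, and these hold down Arntl through ROR elements. Dbp, also driven through E-boxes, encodes an activator that binds D-boxes. Because of this wiring, transcripts of Dbp, Nr1d1, Nr1d2 and the Per genes are high in mouse liver around the end of the day, while Arntl, Clock and Cry1 are high late in the night or near dawn. The first group is called the day-end arm here and the second the Bmal1 arm, and Cry2, whose rhythm is weak, was placed in neither.

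The promoters of 4 genes, shown because they hold a match, carry the 3 kinds of element that tie these arms together. Sequences are from RefSeq (GRCm38.p6), 250 bases before to 50 bases after the annotated start, 5' to 3' on the gene's strand, and 9 of the 10 genes matched the table, with 13 windows in all; Per2 did not. Capitals mark the E-box (CACGTG) in Per1 at chr11:69098699-69098998 (plus strand) and in Cry1 at chr10:85185005-85185304 (minus strand), the D-box (TTATGTAA) in Per3 at chr4:151044616-151044915 (minus strand), and the ROR half-site preceded by T (TAGGTCA) in Arntl at chr7:113207261-113207560 (plus strand).
Per1: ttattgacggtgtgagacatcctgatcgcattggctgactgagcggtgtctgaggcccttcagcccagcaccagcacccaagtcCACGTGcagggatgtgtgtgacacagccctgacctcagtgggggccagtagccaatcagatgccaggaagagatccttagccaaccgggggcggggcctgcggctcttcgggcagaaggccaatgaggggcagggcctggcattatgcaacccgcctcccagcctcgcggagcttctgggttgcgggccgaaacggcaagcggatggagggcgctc
Cry1: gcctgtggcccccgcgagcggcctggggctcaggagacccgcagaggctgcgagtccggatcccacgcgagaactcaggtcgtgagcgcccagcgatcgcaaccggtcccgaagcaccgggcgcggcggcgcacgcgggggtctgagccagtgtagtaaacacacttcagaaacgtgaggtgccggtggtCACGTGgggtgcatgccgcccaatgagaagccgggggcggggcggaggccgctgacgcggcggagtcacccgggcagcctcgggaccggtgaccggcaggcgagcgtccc
Per3: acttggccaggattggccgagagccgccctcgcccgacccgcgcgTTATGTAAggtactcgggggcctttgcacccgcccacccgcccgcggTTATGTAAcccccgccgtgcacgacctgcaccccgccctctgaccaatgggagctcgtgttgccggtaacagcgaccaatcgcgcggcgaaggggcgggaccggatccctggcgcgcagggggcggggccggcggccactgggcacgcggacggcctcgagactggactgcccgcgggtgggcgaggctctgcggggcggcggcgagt
Arntl: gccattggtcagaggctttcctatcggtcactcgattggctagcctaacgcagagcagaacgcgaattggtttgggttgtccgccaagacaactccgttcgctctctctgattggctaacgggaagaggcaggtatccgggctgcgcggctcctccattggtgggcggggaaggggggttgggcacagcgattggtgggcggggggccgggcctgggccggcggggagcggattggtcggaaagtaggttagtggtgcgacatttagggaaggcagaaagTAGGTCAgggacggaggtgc
Both strands of each window were searched. The E-box lay 166 bases before the start in Per1 and 60 bases before it in Cry1, and 7.15% of all 32851 promoter windows hold one. Per3 had 2 D-boxes, 205 and 158 bases before the start, where 0.938% of all windows hold at least 1. The Arntl element began 31 bases after the start as AGGTCA, letters that 16.3% of windows hold, and with the T before it 2.61% do. The half-site AGGTCA, which the longer form contains, was also in windows of Clock, Nr1d2 and Per1. Of the 13 clock gene windows 2 held the E-box, 1 the D-box, 4 AGGTCA and 1 TAGGTCA. No window of Nr1d1, Nr1d2 or Dbp held CACGTG. A match describes the letters only.

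Input RNA was compared first, to ask whether clock transcripts differed between genotypes. None of the 10 genes passed the authors' adjusted p of 0.05, by their DESeq2 comparison, where 0.0389% of all input genes did. An unadjusted p under 0.05 was reached by 1 of the 10, Cry1, against 2.21% of all genes. The clock genes as a group had a median log2 fold change of −0.04, with 3 above 0 and 7 below, beside a median of 0.02 over all genes, of which 46.5% lay below 0. No header states the direction of the ratio; it was taken to be knockout over wild type, as Fto itself is lower in the authors' deposited table (log2 fold change −1.49, SE 0.27, adjusted p = 3.52e-04). Every fold change, SE and p here is from the authors' deposited table, and values of single libraries were not analysed here, so the groups cannot be checked for overlap. The deposited input fold changes have the form of estimates shrunken towards 0, judged from the SEs described further on, and if so each understates the measured ratio.

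The activators of the loop stood close to 0. Clock had the highest mean of the 10, 190.9 normalized counts, and a log2 fold change of −0.05 (SE 0.23, p = 0.812) in the authors' deposited table. Arntl, at a mean of 31.1, stood at 0.05 (SE 0.29, p = 0.868) in the authors' deposited table. Npas2, whose product can replace CLOCK as the partner of BMAL1, was at 0.01 (SE 0.30) with a mean of 14.4 in the authors' deposited table. None of these differences exceeded its own SE.

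The repressors that close the loop pointed in different directions. Cry1 was the gene furthest from 0, at 0.68 (SE 0.29, p = 0.0198, mean 28.7) in the authors' deposited table, which is a level 161% of wild type on the deposited scale. Cry2 pointed the other way, at −0.44 (SE 0.26, p = 0.0959, mean 58.7) in the authors' deposited table, or 73.9% of wild type on that scale. These cryptochromes are paralogs with the same place in the loop, and both values have an adjusted p of 0.9998 over all genes. The difference between Cry1 and Cry2 was not tested, because the covariance of the estimates is not given.

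The Per genes, whose proteins pair with the cryptochromes, lay nearer to 0. Per2 was at −0.14 (SE 0.30, p = 0.646, mean 21.7) in the authors' deposited table. Per3 was at −0.03 (SE 0.21, p = 0.871, mean 18.3) and Per1 at −0.01 (SE 0.20, p = 0.950, mean 25.9) in the authors' deposited table. Per1, which responds to light, feeding and glucocorticoids as well as to the clock, had the smallest fold change of the 10 genes.

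Next came the REV-ERB genes of the stabilising loop. Nr1d1 stood at −0.47 (SE 0.27, p = 0.0837, mean 92.5) in the authors' deposited table, or 72.2% of wild type on the deposited scale. Its 3' end overlaps Thra on the opposite strand, and whether counting used strand is not stated, so reads of the pair may be mixed. Its paralog Nr1d2 was at 0.02 (SE 0.30, p = 0.938, mean 47.1) in the authors' deposited table. The output activator Dbp, among the transcripts with the widest daily swing in liver, was at −0.17 (SE 0.24, p = 0.491, mean 37.1) in the authors' deposited table. For scale, the 5 genes called over the whole table had a test statistic of at least 4.31 in size, and the largest among the clock genes was 2.33, for Cry1.

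**Figure D1:**
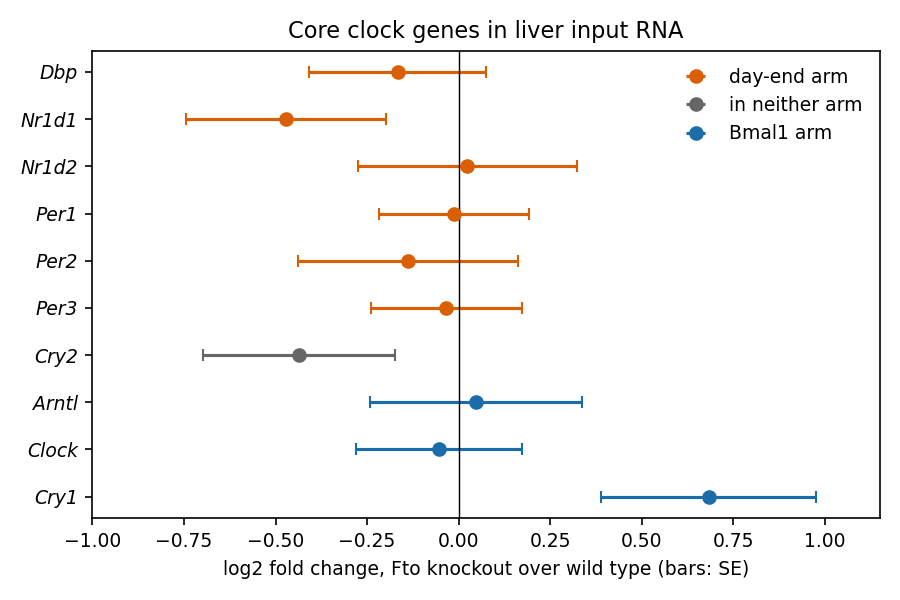
Log2 fold change of the 10 core clock genes in input RNA, Fto knockout over wild type, on the horizontal axis, with 1 row per gene and bars of 1 SE as deposited by the authors. Cry1 lies at 0.68, Nr1d1 at −0.47 and Cry2 at −0.44, and the other 7 genes lie within 1 SE of 0.

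A shift of clock phase moves the arms in opposite directions at most times of day, so the arms were set side by side. The 6 genes of the day-end arm had a median log2 fold change of −0.09 and the 3 genes of the Bmal1 arm 0.05, a gap of −0.13. The deposited SEs, taken as independent, give an error of 0.19 for a difference of arm means, which is not the error of this gap of medians. As a difference of weighted means the gap was −0.29. These SEs have the shrunken form described further on, so 0.19 is no firm measure of spread. Within the day-end arm the values ran from −0.47 for Nr1d1 to 0.02 for Nr1d2, and in the Bmal1 arm from −0.05 for Clock to 0.68 for Cry1. Without Clock the gap was −0.45 and without Arntl −0.40, since Cry1 then weighs more in a median of few genes, and without Cry1 it was −0.08. Whether the genotypes differed in harvest time or clock phase was not tested, and the labels give no time of day.

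The deposited SEs of these genes were then set against their means. Across the input table the SE did not fall steadily with the mean. Its median was 0.21 for genes at a mean up to 2, reached 0.30 at means from 10 to 20 and was 0.23 at means from 300 to 1000. No gene exceeded 0.302. Shrunken estimates of the kind DESeq2 has used can have this shape, in which a small SE occurs where a ratio is well measured and again where it is so poorly measured that it is pulled almost wholly to 0. Under that form a small SE is not in itself a precise value.

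Per1, Per3 and Dbp had the lowest SEs for their abundance. Set among the 401 genes nearest in mean, Per1 (SE 0.20) had the lowest of all, where the neighbours' median was 0.29. For Per3 (SE 0.21, neighbours' median 0.30) 0.249% of the neighbours were lower, which is 1 gene. The same share held for Dbp (SE 0.24, neighbours' median 0.28). A pair of other genes under direct clock control, picked after their values were seen, had SEs as low for their mean. Usp2, a deubiquitinase gene with a strong daily rhythm (SE 0.19, mean 17.3), and Ciart, which encodes a repressor of CLOCK and BMAL1 (SE 0.16, mean 4.44), each had 0.249% of neighbours lower. Other rhythmic genes varied. Tef and Nfil3 lay above 97.3% and 97.8% of their neighbours and Hlf above 58.1%, while Lpin1 and Wee1 lay above 0.249% and 2.74%. A low SE was thus no shared trait of rhythmic genes. The other 7 clock genes ranked higher: Nr1d2 and Per2 lay above 99.5% and 97.0% of their neighbours, Nr1d1 above 91.5%, Cry1 above 88.0%, Arntl above 74.3%, Cry2 above 41.4% and Clock above 29.9%.

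**Figure D2:**
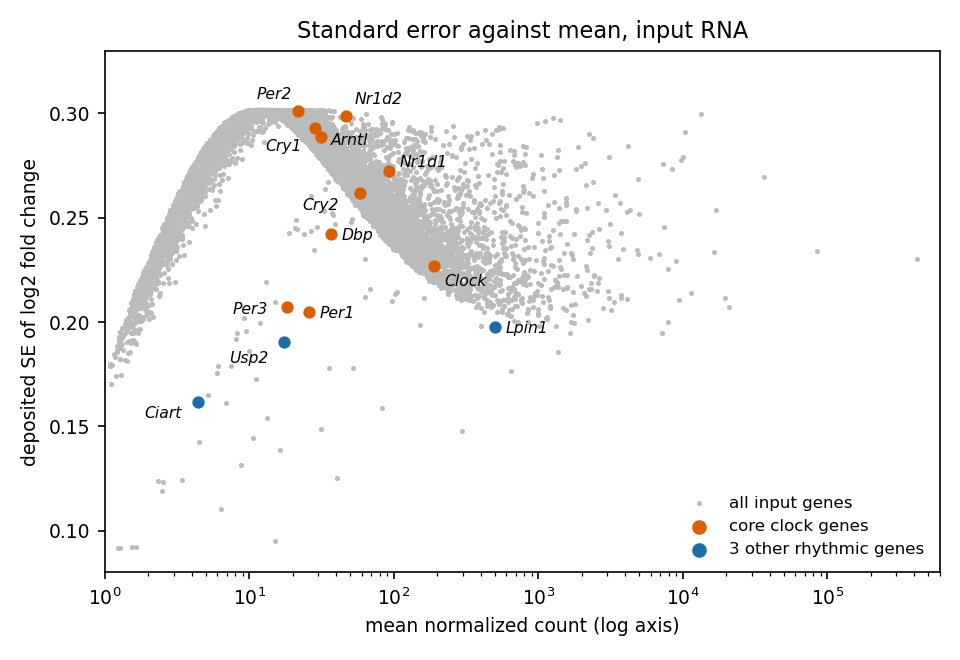
Deposited SE of the log2 fold change against the authors' mean normalized count (log axis) for all input genes in grey, the 10 core clock genes in orange, and Usp2, Ciart and Lpin1 in blue. Most genes form an arch that peaks near 0.30 at means between 10 and 20. Per1, Per3, Usp2 and Ciart hang below it at SEs from 0.16 to 0.21.

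Each SE was then turned back into the SE of an unshrunken ratio, under the assumption that the fit was a ridge-type shrinkage with a prior SD of 0.603, which is 2 times the largest SE in the table. This gives 2 solutions per gene, a small and a large one. For Per3 they were 0.24 and 1.52 on the log2 scale. Counting error alone, at its mean with 3 libraries against 3, gives 0.28, so the small solution lay below what counting allows. For Usp2 the small solution of 0.21 lay below its counting error of 0.28 likewise, and the large one was 1.70. Of the 7144 genes with means from 10 to 100, 13 (0.182%) had a small solution below counting error, Per3 and Usp2 among them. For Per1 the solutions were 0.24 and 1.54 beside a counting error of 0.23, and for Dbp 0.30 and 1.20 beside 0.19, so counting does not decide between them. Under the large solution Per1 would stand at −0.10 (SE 1.54), Per3 at −0.25 (SE 1.52) and Dbp at −0.83 (SE 1.20) before shrinkage.

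The other 7 clock genes had these pairs of solutions. Cry1 would stand at 1.10 (SE 0.47) or 1.79 (SE 0.77) before shrinkage, Nr1d1 at −0.66 (SE 0.38) or −1.66 (SE 0.96), and Cry2 at −0.58 (SE 0.35) or −1.73 (SE 1.04). Per2 would stand at −0.26 (SE 0.57) or −0.30 (SE 0.64), Nr1d2 at 0.04 (SE 0.52) or 0.05 (SE 0.70) and Arntl at 0.07 (SE 0.45) or 0.14 (SE 0.81). Clock would stand at −0.07 (SE 0.27) or −0.32 (SE 1.33). On either solution the ratio of fold change to SE is the deposited one. If the unshrunken SEs have these sizes, a Per or Dbp difference of 1 on the log2 scale would not have reached the statistic of 4.31 that the called genes have, so the absence of calls does not show equal levels.

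The rest of the clock machinery was described from a list of 22 genes, of which 21 had an input row and Bhlhe40 had none. None was called and none had an unadjusted p under 0.05, beside 2.21% of all genes. The median was −0.05, with 8 above 0 and 13 below. Rora, which encodes an activator that competes with the REV-ERBs at ROR elements, was at −0.24 (SE 0.25) in the authors' deposited table. Fbxw11, a ubiquitin ligase subunit that targets PER proteins, was at −0.35 (SE 0.26) there. Bhlhe41, an E-box repressor, was at −0.29 (SE 0.26), and Csnk1e, a kinase that phosphorylates PER proteins, at 0.31 (SE 0.30). Of the D-box factors related to DBP, Tef was at −0.08 (SE 0.29) and Hlf at −0.20 (SE 0.26), and the opposing D-box repressor gene Nfil3 was at 0.00 (SE 0.29).

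Rhythmic genes downstream of the clock, or driven by feeding and body temperature, were described from a list chosen with earlier results of these data known. Of its 22 genes 21 had a row, Hspa1b had none, and 20 had a p. None was called, while 5 had an unadjusted p under 0.05, 4 higher and 1 lower, beside 2.21% of all genes. At means from 300 to 1000, where Alas1 and Cyp7a1 lie, that share was 5.06%. Given how the list was chosen, its count was not tested against these shares. The median was 0.12, with 15 above 0 and 6 below. Alas1, the first enzyme of heme synthesis and one controlled by feeding state and the REV-ERBs, had the lowest p, at 0.90 (SE 0.27, p = 9.06e-04, adjusted p = 0.577, mean 449.1) in the authors' deposited table. Tfrc, the transferrin receptor gene, was at 0.57 (SE 0.27, p = 0.0350) and Cyp7a1, the rate-limiting enzyme of bile acid synthesis, at 0.61 (SE 0.29, p = 0.0360) in the authors' deposited table. Pdk4, a fasting-induced kinase of pyruvate use, was at 0.60 (SE 0.29, p = 0.0390) in the authors' deposited table. Cdkn1a, a cell-cycle inhibitor gene repressed by REV-ERB alpha, was at −0.63 (SE 0.30, p = 0.0353) in the authors' deposited table. Among genes whose rhythm follows body temperature, the cold-induced Cirbp was at 0.19 (SE 0.29) and Rbm3 at 0.10 (SE 0.30), and the heat-shock genes Hspa8 and Hsph1 were at 0.51 (SE 0.28) and 0.18 (SE 0.26).

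**Figure D3:**
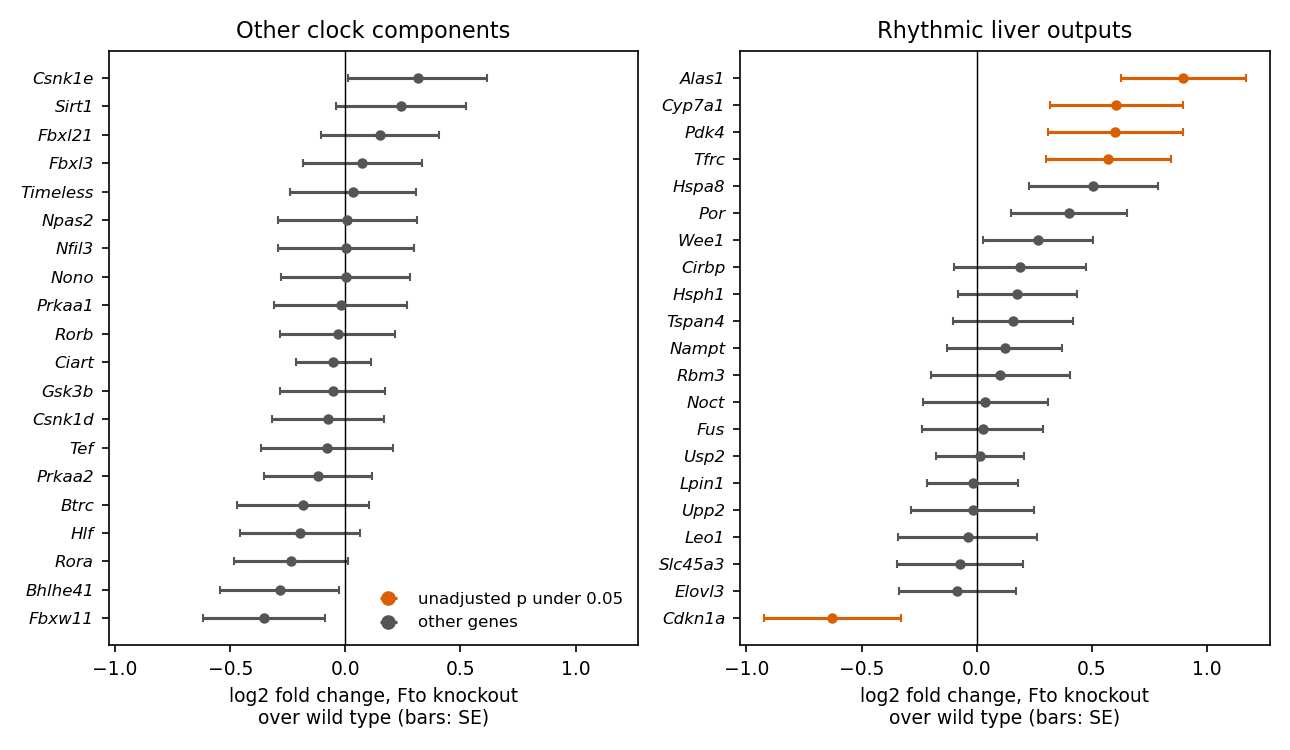
Log2 fold change in input RNA, Fto knockout over wild type, with bars of 1 SE as deposited, for 20 of the 21 other clock components with a row on the left and 21 rhythmic liver output genes on the right, each sorted by value. Genes with an unadjusted p under 0.05 are in orange: none on the left and 5 on the right, of which Alas1 at 0.90 lies furthest from 0.

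Immunoprecipitated RNA was compared to ask whether antibody-bound fragments of clock transcripts differed without Fto. Rows for these genes were shallow. Their means ran from 1.10 normalized counts for Nr1d2 to 7.39 for Clock, and the median over all transcripts was 4.92. A row was present for 70.0% of the 10 genes, and for 35.6% of the 6467 input genes whose input means lay in the range of the clock genes, 18.3 to 190.9. None was called where 4.69% of the transcripts with an adjusted p were, and 1 of the 10 rows, that of Clock, had an adjusted p at all (0.981). None had an unadjusted p under 0.05, beside 10.4% of all transcripts with a p. Of the 10 rows 9 lay below 0, as did 70.5% of all transcripts, and their median was −0.82 beside −1.59 over the whole table. The rows of Per1 are identical to each other, as are those of Cry2, so the 10 rows are not separate measurements. The header does not state a direction here either, so signs are given as deposited, and read the other way each would turn.

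Per1 and Per2 had the lowest p-values of the clock rows in the immunoprecipitate. Per1 had 3 transcripts with the same mean of 4.14, log2 fold change of −1.12 (SE 1.57) and p of 0.0818 in the authors' deposited table, so they are 1 measurement. Per2 was at −4.71 (SE 2.13, p = 0.126, mean 3.59) in the authors' deposited table. With a mean this low, so large a fold comes from a handful of reads. Nr1d2 was at 3.89 (SE 3.20, p = 0.181) and Nr1d1 at −0.003 (SE 2.36, p = 0.965) in the authors' deposited table. Cry2 had 2 transcripts at the same −0.55 (SE 3.17, p = 0.459) in the authors' deposited table.

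Clock and Per3 both stood at −0.82 in the immunoprecipitate (SE 3.05 each), and that value is not particular to them. Within 0.0001 of the value of Clock lay 840 of the 7569 transcripts, and −0.82 is also the median of the transcripts with a mean of at least 10. Of the other clock components 9 transcripts had a row and of the rhythmic outputs 26, none of them called. None of the 9 had an adjusted p, and 4 of the 26 did, so most could not have been called. In each list 1 row had an unadjusted p under 0.05, beside 10.4% of all transcripts with a p. These were Timeless (p = 0.0394) and Elovl3 (p = 0.0485) in the authors' deposited table, both below 0. The other Timeless rows had p from 0.0530 to 0.0747. The SEs of the core clock rows ran from 1.57 to 3.20, against 0.20 to 0.30 in the input. The ranges are not on 1 footing, because the input SEs have the shrunken form described above. Undone as above, the larger input solution reached 1.54 for Per1.

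The difference between immunoprecipitate and input was to be tested where both means were 10 or more, and none of the clock genes had such a mean in the immunoprecipitate. With no minimum, 7 were among 3966 genes and none passed with Benjamini-Hochberg adjustment of a normal test on the deposited values. Per2 had the lowest p, with a difference of −4.57 (SE 2.15, adjusted p = 0.152), and Nr1d2 was next at 3.87 (SE 3.21, adjusted p = 0.453). The test takes the errors of the tables as independent. It rests on the printed fold changes and SEs, whereas the authors' p in the immunoprecipitate follows a different statistic. It also subtracts input values that have the form of shrunken estimates, so the sides may be on unlike scales.

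**Figure D4:**
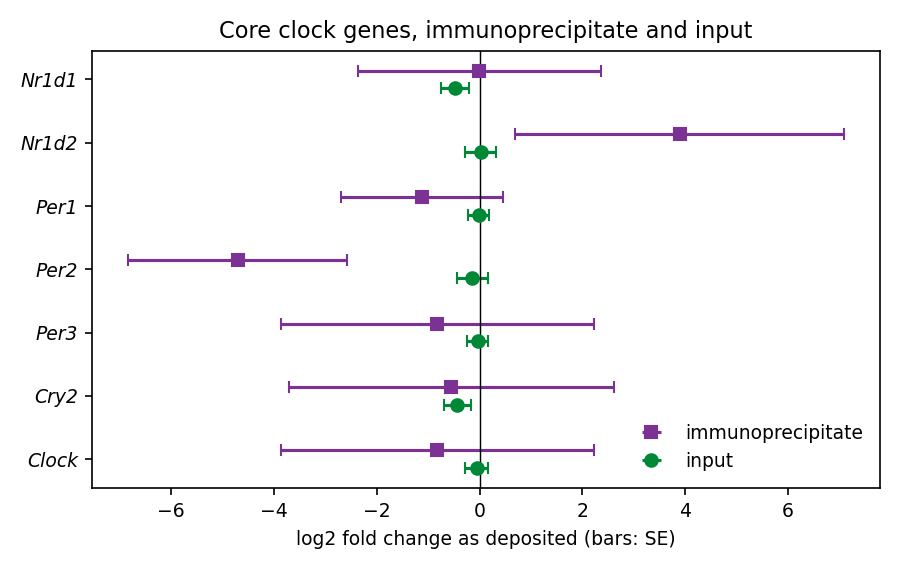
Log2 fold change as deposited in the immunoprecipitate (purple squares) and in the input (green circles) for the 7 clock genes with rows in both, with bars of 1 SE. The input values lie within 0.5 of 0 and the immunoprecipitate bars are several times wider, with Per2 at −4.71 and Nr1d2 at 3.89. The input values and bars have the form of shrunken estimates, so the widths are not a like comparison.

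The tissue label was checked against markers in the input. The 6 hepatocyte markers had means from 762 for Serpina1c to 84262 for Alb. Kupffer cell, endothelial and stellate markers had means up to 240.5 for Clec4f, 234.3 for Stab2 and 269.5 for Dcn, and those lymphocyte and bile duct markers that had a row stood at 10.1 or below. None of these markers was called, and their part in the clock values was not tested. Of all the marker genes the red-cell gene Alas2 lay furthest from 0, at −0.99 (SE 0.29, adjusted p = 0.443), opposite in sign to its liver paralog Alas1. In bulk RNA fewer cells of a type and less RNA per cell cannot be told apart.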

How the data were processed

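Per the labels' protocols, total liver RNA was extracted with TRIzol, treated with DNase and made into miCLIP libraries by the iCLIP procedure. The submitters' processing notes name STAR, bedtools 2.25.0, DESeq2 and the build mm10, without roles. What the authors deposited are comparison tables, 1 by gene for the input and 1 by transcript for the immunoprecipitate. Per the file headers, each row holds the authors' mean normalized count over libraries (a signal averaged over scaled libraries), a log2 fold change with its SE on the log2 scale, the authors' statistic, here called a score, and the authors' p-value and adjusted p-value. No source used here gives the counting rules, model or filters. Depth per library is unknown. The means sum to 1809285 over the input rows and to 494485 over the immunoprecipitate rows. Replicates may be technical, so p-values measure only the spread between these samples.

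In the input the statistic equalled fold change over SE. In the immunoprecipitate the p-value matched a chi-square test with the score as its value, which need not test the printed fold change. Calls used the authors' adjusted p under 0.05. A p was missing for 18 input genes and 723 immunoprecipitate transcripts. Gene symbols were matched as printed or by the older symbol (Ciart as Gm129, Noct as Ccrn4l, Adgre1 as Emr1). The unshrunken SE solves SE = root(I)/(I + 1/prior variance), with I the inverse square of that SE. It and the neighbour ranks were chosen after seeing the data. Python 3.11.15, scipy 1.17.1 and pandas 2.3.3 were used, and the code was tested on simulated data. Those data were made with the same shrinkage form, so the assumed form and the choice between solutions were not tested. Named genes were the 10 members, the 5 genes of each further list with the lowest p in the input, and Fto. Usp2, Ciart, Lpin1, Npas2, Tef, Hlf, Nfil3, Cirbp, Rbm3, Hspa8, Hsph1, Timeless, Elovl3, the cell markers and the genes listed under other observations were named outside that rule, after their values were seen. Of the genes these rules select, 2 are not reported here. Members and lists were chosen with earlier results of these data known.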

Additional observations from a re-analysis of the deposited data

How the results depend on the processing

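With an unadjusted p under 0.05 in place of the adjusted one, 1 core clock gene and 5 genes of the further lists pass in the input, and 0 clock rows in the immunoprecipitate. The counts of calls stayed at 0 under adjustment over the rows of each table and, in the immunoprecipitate, by fold over SE. A minimum mean of 10 in the input, exact symbols, leaving out Alas1 and turning the immunoprecipitate direction could not raise a count of 0. Their counts of 0 therefore add nothing. No immunoprecipitate row of a clock gene has a mean of 10, so the minimum mean gave no count there. The gap between the arms was negative under every alternative run. All of them reuse the same arm genes, so the shared sign is no separate support for a difference. The gap ran from −0.45 (without Clock) to −0.08 (without Per2, Nr1d1 or Dbp) when 1 gene was left out, and was −0.40 without Arntl. It was −0.07 with wider arms and −0.29 as weighted means. With shrinkage undone it was −0.20 under the small and −0.41 under the large unshrunken SE, which scales up the fold changes by construction. Centring left the sign of all 10 input values and of 4 of 7 immunoprecipitate values, while Cry2 turned to 0.27, Nr1d1 to 0.82 and Per3 to 3.66e-05. Clock, counted among the 4, was left at −1.49e-06. Clock and Per3 share the subtracted median, so their signs after centring carry no meaning. The planned undoing of shrinkage with the largest SE as the prior SD was not run, since the fall of the SE at low means goes against that form, and 2 times that SE was used. No paired analysis was possible because the tables hold comparisons, with no values of numbered replicates, and no replicate could be left out for the same reason.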

Other observations

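The 13 input genes with means from 10 to 100 whose small unshrunken SE lay below counting error included, in order of that SE, Cyp2b9, Cyp2b10, Pnpla3, Slc16a5, Serpinb1a, Cxcl13, Chrna4, Usp2, AC151990.6-2, Per3, Ces2 and Erbb4. They were listed after the data were seen. The cytochrome genes Cyp2b9 and Cyp2b10 had large solutions of 2.78 and 2.48. Pnpla3, a lipid droplet hydrolase gene that responds to feeding, had a large solution of 2.37. None of the 9 among the 13 with a p had one under 0.05, and 4 had no p.

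Lpin1, a phosphatidate phosphatase gene with a daily rhythm and a fasting response, had no p in the input table although its mean was 500.0. Its log2 fold change was −0.02 (SE 0.20), and 0.249% of its neighbours in mean had a lower SE. Rgs16, a regulator of G protein signalling whose liver transcript follows feeding, was another of the 18 genes with no p, at −0.13 (SE 0.16, mean 82.6). No source used here says why.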
